A study of Mus musculus with 12 samples.

Results

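The renin-angiotensin genes Agt, Ren1, Ace, Agtr1a, Agtr1b and Atp6ap2 were taken from a table of kidney RNA counts by their gene symbols, which gave 6 of its 39171 genes. The 12 kidneys came from males, none older than 3 months, with 4 mice in each of 3 groups and 1 library per mouse. Sick knock-in mice and healthy knock-in mice both carried the M743T substitution on both copies of Gne, and wild-type mice did not carry it. Gne encodes an enzyme with epimerase and kinase activities that starts the synthesis of sialic acid. The submitters classed the knock-in mice as sick or healthy by phenotype, so the 2 knock-in groups differ by that class and not by genotype. The sources used here do not give what defined the class, the strain, or whether mice were littermates, and the counts per gene cannot show the substitution itself. No treatment other than the genotype is listed.

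The renin-angiotensin system is a chain of cleavages that ends in a peptide which constricts vessels and retains salt. Renin, released by the juxtaglomerular cells of the afferent arteriole, cuts angiotensinogen, and angiotensin-converting enzyme trims the product to angiotensin II, which acts on the type 1 receptors. In the kidney the converting enzyme sits in the brush border of the proximal tubule and on endothelium, angiotensinogen is made in the proximal tubule, and the macula densa signals to the renin cells.

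Ace was 6.56 times lower in sick than in healthy knock-in mice and 5.90 times lower than in wild-type mice, and this was the clearest change among the 6 genes. Ren1 was lower in sick knock-in than in wild-type mice, and Agtr1a was slightly lower in sick than in healthy knock-in mice. Whether either difference passed depended on single mice and on how libraries were scaled. Agt and Atp6ap2 did not pass the test in any comparison, Agtr1b was almost without counts, and none of the 5 tested members passed between healthy knock-in and wild-type mice.

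Total counts per library were 10605546 to 22633684 in sick knock-in, 18191087 to 21925419 in healthy knock-in and 13189478 to 19493856 in wild-type mice. Levels are given as CPM, counts relative to the size of their library, after correction of that size by trimmed means (TMM). The TMM factors were 1.23 to 1.39 in sick knock-in, 0.804 to 0.933 in healthy knock-in and 0.839 to 0.901 in wild-type mice. Without them, the median log2 fold change of all 15589 genes tested moved to 0.61 for sick knock-in against wild-type mice, against 0.02 with them, so the direction of a small change in sick mice rests on the scaling. The 4 sick libraries lay apart from the other 8 on the leading principal component, which held 60.9% of the variance, and on the next one, with 11.9%, wild-type mouse 2 (-84.7) and sick mouse 3 (-38.9) stood apart from the other 10, at 1.34 to 28.4. Sick mouse 3 had the highest Agt and Ren1 of the sick mice. The kidney marker Umod, made by the thick ascending limb, was present in every library and lay at 265 to 2639 CPM in sick knock-in, 1115 to 3861 CPM in healthy knock-in mice and 2562 to 3657 CPM in wild-type mice.

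Of the 6 members, 5 had counts high enough to be tested. In sick knock-in against wild-type mice 2 of these 5 were lower and 0 were higher, where 50.9% of all genes passed edgeR's quasi-likelihood test at an adjusted p of 0.05, 25% lower and 25.9% higher. In sick against healthy knock-in mice 2 were again lower and 0 higher, where 46.4% of all genes passed, 21.9% lower and 24.5% higher. In healthy knock-in against wild-type mice 0 of 5 passed, and 0.314% of all genes did, 0.308% higher and 0.00641% lower. A share of 2 in 5 is near that of all genes in the comparisons of sick mice. Groups did not overlap for 1 of the 5 tested members, Ace, in both comparisons of sick mice, where 43.2% of all genes did not overlap against wild-type and 47.2% against healthy knock-in mice. The comparisons of sick mice share the sick libraries, so their values are not independent of each other.

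**Figure D1:**
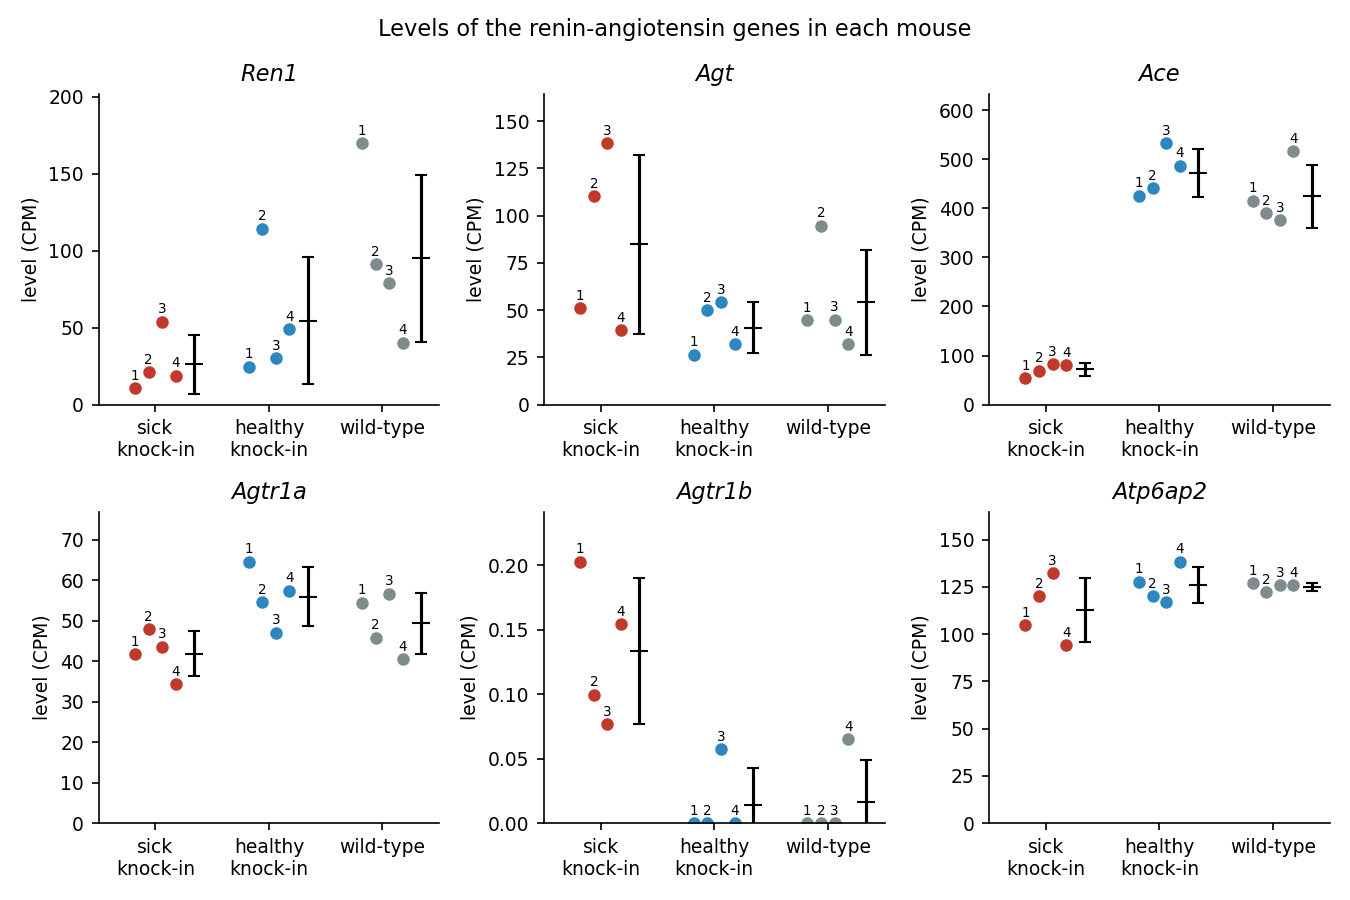
Level in CPM (linear axes from 0) of each of the 6 genes in each mouse, with mice numbered 1 to 4 within sick knock-in, healthy knock-in and wild-type groups, and bars for the mean and SD of a group. Ace lay at 54.6 to 82.8 CPM in sick knock-in mice and above 375 CPM in the others, whereas the groups overlapped for Ren1, Agt, Agtr1a and Atp6ap2.

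Agt, on chromosome 8 (124556534 to 124569706, minus strand, GRCm38, GENCODE M21), encodes angiotensinogen, the substrate of the chain. It stood at 51.0, 110.2, 138.4 and 39.5 CPM in sick knock-in mice 1 to 4, against 26.4, 49.9, 54.3 and 32.0 CPM in healthy knock-in mice and 44.8, 94.7, 45.1 and 32.2 CPM in wild-type mice. Sick mice 2 and 3 were high, the other 2 sick mice lay among the remaining libraries, and wild-type mouse 2 was also high, so the groups overlapped. The log2 fold change by edgeR was 0.64 ± 0.42 (SE, n = 4 each) for sick knock-in against wild-type mice, with an adjusted p of 0.222, and 1.06 ± 0.42 for sick against healthy knock-in mice, with an adjusted p of 0.0566. Between healthy knock-in and wild-type mice it was -0.41 ± 0.42, with an adjusted p of 0.912. The value against healthy mice lay close to the threshold and passed it without sick mouse 1 (adjusted p by edgeR 0.0411), without sick mouse 4 (0.0234) or without wild-type mouse 2 (0.0334). Without sick mouse 3 the values were 0.30 against wild-type and 0.72 against healthy mice, and without wild-type mouse 2 the value against wild-type was 1.05 (adjusted p by edgeR 0.05, just short of passing). The SD was 47.3 CPM in sick knock-in, 13.5 CPM in healthy knock-in mice and 27.7 CPM in wild-type mice.

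Ren1, on chromosome 1 (133350510 to 133360325, plus strand), encodes renin, the enzyme whose release limits the rate of the chain. Its promoter and that of Ace are shown because these are the 2 members that were lower in sick knock-in than in wild-type mice. Both are RefSeq sequences of GRCm38.p6 on the plus strand, 250 bases before to 50 bases after the annotated start of the transcript, at chr1:133350424-133350723 for Ren1 and chr11:105967698-105967997 for Ace. Capitals mark matches on either strand to the TATA box TATAAA, the GC box GGGCGG, the CCAAT box and the cAMP response element TGACGTCA.
Ren1 promoter: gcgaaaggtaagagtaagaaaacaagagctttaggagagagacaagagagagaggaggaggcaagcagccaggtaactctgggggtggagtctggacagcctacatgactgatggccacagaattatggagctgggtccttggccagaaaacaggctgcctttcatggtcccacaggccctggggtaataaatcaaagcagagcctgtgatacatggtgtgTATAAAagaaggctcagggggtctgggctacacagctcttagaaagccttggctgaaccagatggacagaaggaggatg
Ace promoter: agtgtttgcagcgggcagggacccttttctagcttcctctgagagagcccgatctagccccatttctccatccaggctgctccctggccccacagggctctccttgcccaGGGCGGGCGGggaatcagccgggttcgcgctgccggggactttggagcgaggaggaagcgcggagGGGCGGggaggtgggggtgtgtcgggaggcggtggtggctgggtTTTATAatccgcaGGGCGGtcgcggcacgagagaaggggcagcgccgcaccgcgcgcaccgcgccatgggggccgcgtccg
The Ren1 window held 1 TATA box, 29 bases before the start, and none of the other 3 motifs. The Ace window held a TATA box on the opposite strand 31 bases before the start and 4 GC boxes, at 140, 136, 75 and 18 bases before it, of which the first 2 overlap. Among 32851 promoters of the same length, 13.6% held TATAAA, 35.7% GGGCGG, 37.4% CCAAT and 1.79% TGACGTCA. These matches describe letters only. RefSeq had such windows for 5 of the 6 members.

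Ren1 stood at 10.8, 21.1, 53.9 and 18.8 CPM in sick knock-in mice 1 to 4, against 24.7, 114.4, 30.2 and 49.2 CPM in healthy knock-in mice and 169.9, 91.1, 78.9 and 40.4 CPM in wild-type mice. Sick mice 1, 2 and 4 were the lowest of all 12, and sick mouse 3 lay above wild-type mouse 4, so the groups overlapped. The lowest and highest mouse differed 4.98-fold within the sick knock-in, 4.63-fold within the healthy knock-in and 4.21-fold within the wild-type group, and this was the widest spread of any tested member in each group. The log2 fold change for sick knock-in against wild-type mice was -1.87 ± 0.59 (SE, n = 4 each), a 3.66-fold lower level, with an adjusted p of 0.0181 by edgeR. Leaving out sick mouse 1 (adjusted p by edgeR 0.0503), sick mouse 4 (0.0501) or wild-type mouse 1 (0.0626) ended the call, and the log2 fold change lay between -2.49, without sick mouse 3, and -1.44 over all 12 mice left out in turn. The authors' deposited table gives -1.64 ± 0.48 with an adjusted p of 0.0792 for the same comparison, from a test against a minimum log2 fold change of 0.5. Against healthy knock-in mice the value was -1.07 ± 0.58, with an adjusted p of 0.147 by edgeR, and it passed without sick mouse 3 (-1.70, adjusted p 0.029). Healthy knock-in against wild-type mice gave -0.80 ± 0.57 with an adjusted p of 0.912 by edgeR. The mean was 26.1 ± 19.0 CPM in sick knock-in, 54.6 ± 41.2 CPM in healthy knock-in mice and 95.1 ± 54.4 CPM in wild-type mice (SD, n = 4 each). Some mouse strains carry a second renin gene, Ren2, that is nearly identical to Ren1, and the strain is not given, so reads of Ren2 may be counted in Ren1. In whole kidney, fewer cells of a type and less RNA per cell cannot be told apart.

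Ace, on chromosome 11 (105967945 to 105989964, plus strand), encodes angiotensin-converting enzyme. It stood at 54.6, 69.3, 82.8 and 80.9 CPM in sick knock-in mice 1 to 4, against 426.0, 440.5, 532.7 and 487.1 CPM in healthy knock-in mice and 415.3, 389.8, 375.5 and 516.4 CPM in wild-type mice. Every sick mouse was far below every other mouse, and the healthy knock-in and wild-type groups overlapped. The mean was 71.9 ± 13.0 CPM in sick knock-in, 471.6 ± 48.4 CPM in healthy knock-in mice and 424.3 ± 63.6 CPM in wild-type mice (SD, n = 4 each). The log2 fold change by edgeR was -2.56 ± 0.17 (5.90-fold lower, adjusted p 1.26e-06) for sick knock-in against wild-type and -2.71 ± 0.17 (6.56-fold lower, adjusted p 1.37e-06) for sick against healthy knock-in mice. It passed in every refit with 1 mouse left out, with values of -2.64 to -2.45 and -2.79 to -2.604. Healthy knock-in against wild-type mice gave 0.15 ± 0.16, with an adjusted p of 0.913 by edgeR. RefSeq lists a second Ace start 7241 bases downstream of the first, the origin of the shorter testis form, and counts per gene sum the forms. Of 8 testis markers Prm1, Tnp1 and Tnp2 had no count in any group. Smcp, a sperm capsule gene of the same list, lay at 0 to 0.41 CPM in sick knock-in mice, against 4.45 to 7.77 CPM in healthy knock-in mice and 3.99 to 16.6 CPM in wild-type mice, and fell by 6.10 ± 0.73 on the log2 scale against wild-type mice (adjusted p by edgeR 2.89e-05). The part of testis markers in the Ace result was not tested.

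Markers of the cells that carry the converting enzyme moved unequally with it. All 12 proximal tubule markers were lower in sick mice in both comparisons, and their summed level was 3713 to 7969 CPM in sick knock-in, 22780 to 29200 CPM in healthy knock-in mice and 23610 to 27860 CPM in wild-type mice, with none at 0. Of 12 endothelial markers 1 was lower, Kdr, and the summed level was 838.5 to 1026 CPM in sick knock-in, 844.5 to 960.6 CPM in healthy knock-in mice and 882.4 to 1076 CPM in wild-type mice. Their part in the Ace result was not tested.

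The genes whose pattern over the 12 libraries was most like that of Ace were Abhd3, Pank1 and Oxct1. Their root-mean-square difference from Ace in log2 CPM, each gene centred on its own mean, was 0.16, 0.17 and 0.19, where Ace itself varied by 1.26 around its mean. The genes most like Ren1 were Kcne1l, Pter and Amn at 0.58, 0.61 and 0.61, against a variation of 1.13 for Ren1, so none of the 13799 genes compared followed Ren1 as closely as those 3 followed Ace. For Agt they were Prss12, Tspan1 and Rnaset2b at 0.26 to 0.27 (own variation 0.71), for Agtr1a Nsf, Slc20a2 and Hectd3 at 0.12 (0.25), and for Atp6ap2 Insig2, Tfip11 and Ptdss1 at 0.08 to 0.09 (0.14). The likeness describes these 12 libraries, which share the split between sick mice and the rest.

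Agtr1a, on chromosome 13 (30336441 to 30382867, plus strand), encodes the main type 1 angiotensin receptor of mice. It stood at 41.7, 47.9, 43.6 and 34.3 CPM in sick knock-in mice 1 to 4, against 64.6, 54.6, 47.0 and 57.4 CPM in healthy knock-in mice and 54.5, 45.8, 56.7 and 40.5 CPM in wild-type mice. The sick mice were low, but sick mouse 2 lay above healthy mouse 3 and the sick and wild-type groups overlapped widely. The log2 fold change by edgeR was -0.42 ± 0.15 (SE, n = 4 each) for sick against healthy knock-in mice, a 1.33-fold lower level, with an adjusted p of 0.0347. For sick knock-in against wild-type mice it was -0.24 ± 0.15 (adjusted p by edgeR 0.203), and between healthy knock-in and wild-type mice it was 0.18 ± 0.15 (0.912). The call against healthy mice was lost without sick mouse 1 or 4 or without healthy mouse 1, 2 or 4, with adjusted p by edgeR of 0.0565 to 0.104. It was also lost with upper-quartile scaling (-0.30, adjusted p by edgeR 0.119), and with library totals alone the direction turned to 0.17 against healthy and to 0.35 against wild-type mice.

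Agtr1b, on chromosome 3 (20314473 to 20367177, minus strand), encodes the second type 1 receptor of rodents. The starts of both coding sequences are shown because their likeness bears on how reads of the pair are counted. They are the first 60 coding bases of each, from GENCODE M21 transcripts, and capitals mark the 7 positions at which they differ.
Agtr1a: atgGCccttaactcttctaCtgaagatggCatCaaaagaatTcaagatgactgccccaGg
Agtr1b: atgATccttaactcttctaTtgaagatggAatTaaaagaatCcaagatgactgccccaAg
Both coding sequences are 1080 bases long and are identical at 981 bases (90.8%), with a longest identical run of 66 bases. Of 1031 windows of 50 bases, 33 (3.2%) were the same in both, so a short read from such a window fits both genes. Agtr1b had 5, 3, 1 and 3 counts in sick knock-in mice 1 to 4, against 0, 0, 1 and 0 counts in healthy knock-in and 0, 0, 0 and 1 count in wild-type mice. All 4 sick mice had at least 1 count, and 3 mice of each other group had none. The mean was 0.133 ± 0.057 CPM in sick knock-in, 0.014 ± 0.029 CPM in healthy knock-in mice and 0.016 ± 0.033 CPM in wild-type mice (SD, n = 4 each). The ratio of rates was 7.73 for sick knock-in against wild-type mice (exact 95% interval 1.14 to 330.3) and 9.61 for sick against healthy knock-in mice (1.42 to 410.7), from 12 counts against 1 in both cases. Healthy knock-in against wild-type mice gave 0.804 (0.0102 to 63.1), from 1 count each. The intervals cover counting error only, and reads of Agtr1a that were assigned to Agtr1b cannot be told apart from its own. Agtr1b did not reach the minimum for the edgeR fit.

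Within a library, a ratio of counts needs no scaling factor. In mice with 0 Agtr1b counts, however, the ratio was set by the Agtr1a count and the count added, and so also depended on depth. This held for most healthy knock-in and wild-type mice. The log2 ratio of Agtr1a to Agtr1b counts averaged 8.10 ± 0.62 in sick knock-in, 10.5 ± 0.95 in healthy knock-in and 10.01 ± 0.88 in wild-type mice (SD, n = 4 each, 0.5 added to each count). The differences were -1.92 for sick knock-in minus wild-type and -2.43 for sick minus healthy knock-in mice (two-sided exact permutation p 0.0286 for both, the smallest that 4 against 4 allows, and 0.0429 after adjustment over 6 ratio tests, of which 3 are reported), and 0.51 for healthy minus wild-type mice (exact permutation p 0.457, adjusted 0.457). With so few Agtr1b counts these values depend on the count added: with 1 in place of 0.5 they were -1.30 and -1.81, and neither passed after adjustment.

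Atp6ap2, on chromosome X (12587801 to 12617049, plus strand), encodes the prorenin receptor, which is also an accessory subunit of the vacuolar proton pump. It stood at 104.9, 120.1, 132.3 and 94.1 CPM in sick knock-in mice 1 to 4, against 127.9, 120.2, 116.9 and 138.4 CPM in healthy knock-in mice and 126.9, 122.1, 126.1 and 125.8 CPM in wild-type mice. Sick mice 1 and 4 were the lowest, sick mouse 3 was among the highest, and the groups overlapped. The log2 fold change by edgeR was -0.15 ± 0.12 for sick knock-in against wild-type (adjusted p 0.32), -0.16 ± 0.12 for sick against healthy knock-in (adjusted p 0.305) and 0.01 ± 0.12 between healthy knock-in and wild-type mice (adjusted p 0.995; SE, n = 4 each). With library totals alone it turned to 0.44 and 0.43 in the comparisons of sick mice and passed as higher (adjusted p by edgeR 0.00412 and 0.00479), below the median shift that this scaling gave to all genes. Wild-type mice spread least, with an SD of 2.15 CPM, against 16.8 CPM in sick knock-in and 9.58 CPM in healthy knock-in mice.

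Per kilobase of exon, the order of the members differed between sick mice and the others. In sick knock-in mice Agt led at 44.8 ± 25.0 CPM per kb, followed by Atp6ap2 at 43.1 ± 6.41, Ren1 at 15.8 ± 11.5, Agtr1a at 15.0 ± 2.03, Ace at 13.6 ± 2.46 and Agtr1b at 0.062 ± 0.026 CPM per kb (SD, n = 4). In healthy knock-in mice Ace led at 89.2 ± 9.15 CPM per kb, followed by Atp6ap2 at 48.1 ± 3.66, Ren1 at 33.0 ± 24.9, Agt at 21.5 ± 7.15, Agtr1a at 20.1 ± 2.6 and Agtr1b at 0.007 ± 0.013 CPM per kb. In wild-type mice Ace led at 80.3 ± 12.03 CPM per kb, followed by Ren1 at 57.4 ± 32.8, Atp6ap2 at 47.8 ± 0.82, Agt at 28.7 ± 14.6, Agtr1a at 17.7 ± 2.71 and Agtr1b at 0.008 ± 0.015 CPM per kb. In sick mice the ranges of Agt and Atp6ap2 overlapped, as did those of Ren1, Agtr1a and Ace. In healthy mice Ace lay above all other members, and the next 3 pairs of neighbours overlapped. In wild-type mice all neighbours from Ace to Agtr1a overlapped. Agtr1b lay below all others in every mouse.

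Other enzymes that make or cut angiotensins were described from a list of 17 genes, of which 13 were tested. In sick knock-in against wild-type mice 1 was higher and 5 were lower, where 25.9% of all genes were higher and 25% lower. The share of the list that passed was near the 50.9% of all genes. Its median log2 fold change was -0.17, against 0.02 over all genes tested. Anpep, the aminopeptidase that shortens angiotensin III, fell by 2.25 ± 0.17 on the log2 scale, to 49.3 ± 10.96 CPM in sick knock-in mice, against 234.0 ± 24.7 CPM in wild-type mice (adjusted p by edgeR 1.85e-06). Enpep, which makes angiotensin III, fell by 1.03 ± 0.14, to 105.4 ± 8.08 CPM in sick knock-in mice, against 214.5 ± 33.9 CPM in wild-type mice (adjusted p by edgeR 6.27e-05). The sick mice did not overlap the other mice for either gene. Mme, a peptidase of the same list, was not called, at 101.8 ± 33.4 CPM in sick knock-in mice, against 102.0 ± 36.7 CPM in wild-type mice. Klk1, the kallikrein that releases kinins, fell by 1.49 ± 0.48 (adjusted p by edgeR 0.0195), with 49.2, 198.7, 295.6 and 77.3 CPM in sick knock-in mice, and leaving out either sick mouse 4 (adjusted p by edgeR 0.054) or wild-type mouse 1 (0.0517) ended the call, as did library totals alone (-0.94, adjusted p 0.0844). Ctsa and Nln, peptidases of lysosome and cytosol, fell by 0.53 ± 0.17 and 0.50 ± 0.14, with adjusted p by edgeR of 0.0204 and 0.0086, and with library totals alone both turned to slightly above 0. The Ctsa call was also lost with upper-quartile scaling (adjusted p by edgeR 0.0636) and without sick mouse 4 (0.0568).

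Ctsd, the lysosomal aspartic protease that can cut angiotensinogen in vitro, was the member of that list that rose. It stood at 1382 ± 304 CPM in sick knock-in mice, against 622.3 ± 147.5 CPM in wild-type mice (log2 fold change 1.15 ± 0.22, adjusted p by edgeR 0.000816). Macrophage markers, 10 of 10, also rose, at a summed 575.6 to 1140 CPM in sick knock-in, 160.4 to 198.8 CPM in healthy knock-in mice and 113.8 to 190.1 CPM in wild-type mice. Their part in the Ctsd result was not tested. Prcp had a log2 fold change of -0.54 ± 0.22 (adjusted p by edgeR 0.0529), and Mme, Lnpep, Thop1, Prep, Rnpep and Dpp3 lay between -0.17 and 0.39. The mast cell and neutrophil proteases Cma1, Mcpt4, Cpa3 and Ctsg, which can make or cut angiotensins, were below the minimum, with 11, 12, 30 and 30 counts over the 4 sick knock-in mice, 2, 2, 4 and 0 counts in healthy knock-in mice and 6, 2, 10 and 1 counts in wild-type mice. All 30 Ctsg counts of sick mice came from sick mouse 1, and the other 3 sick mice had 0. In sick against healthy knock-in mice the list gave 1 higher and 5 lower, where 24.5% of all genes were higher and 21.9% lower. Prcp passed in that comparison (-0.66 ± 0.22, adjusted p by edgeR 0.0236) and Klk1 did not (-0.999 ± 0.47, adjusted p 0.1). Prcp no longer passed when sick mouse 1 (adjusted p by edgeR 0.0565), sick mouse 4 (0.0705) or healthy mouse 4 (0.0731) was left out, nor with library totals alone (-0.07, adjusted p 0.758). Healthy knock-in against wild-type mice gave 0 of 13, where 0.314% of all genes passed.

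**Figure D2:**
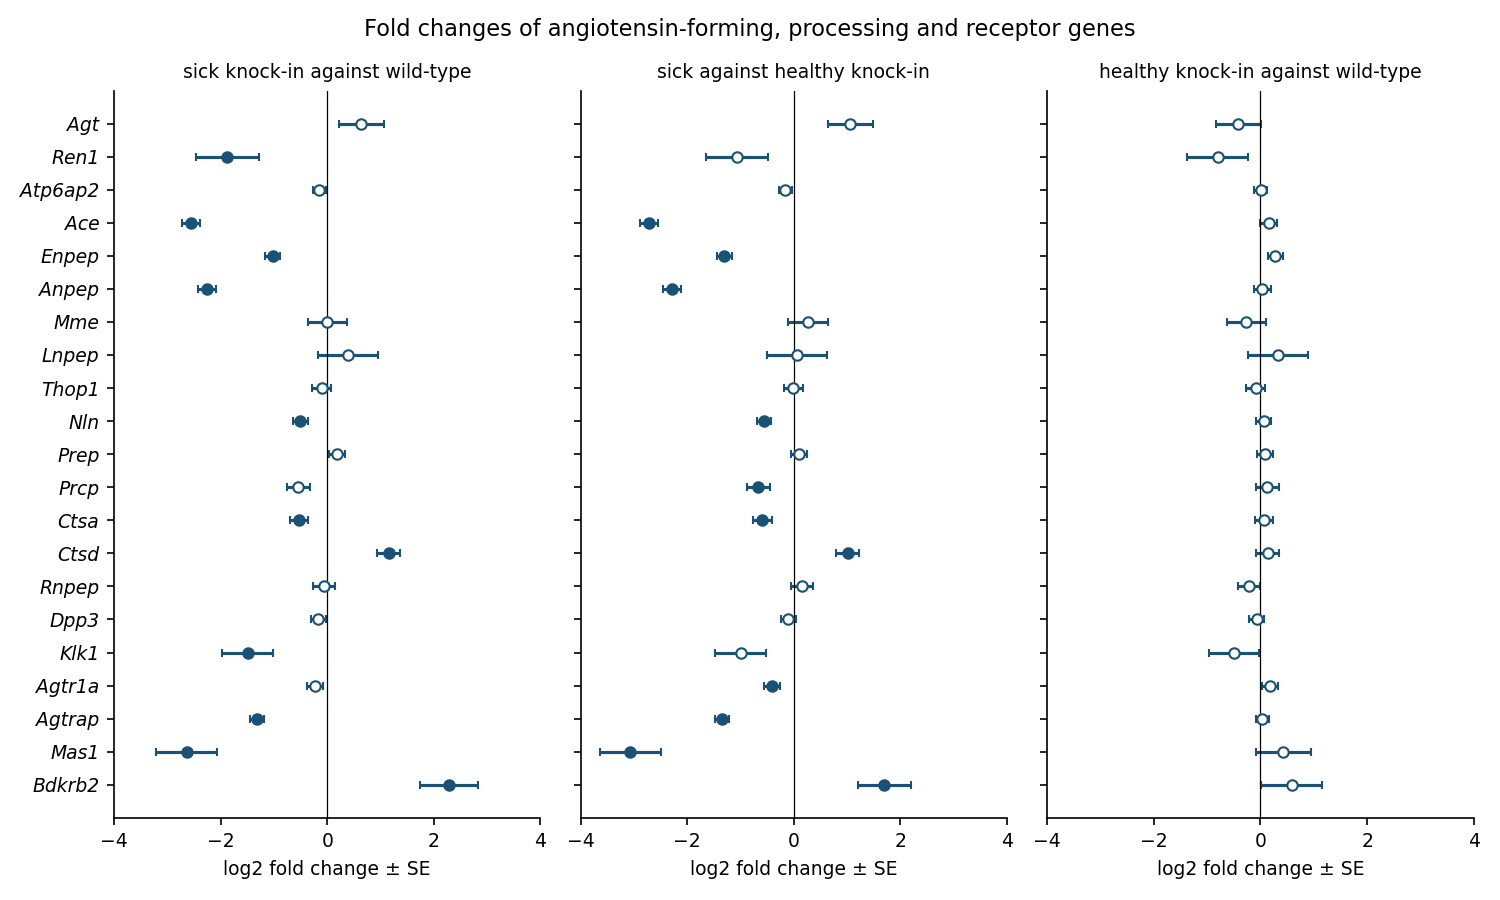
Log2 fold change with its SE (n = 4 mice a group) for Agt, Ren1, Atp6ap2, Ace, the other tested angiotensin-processing genes and the tested receptor genes in the 3 comparisons, with filled points for an adjusted p below 0.05 by edgeR. Ace, Enpep and Anpep lay below 0 and Ctsd above it in both comparisons of sick mice, and no point was filled between healthy knock-in and wild-type mice.

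Of 6 other receptor genes 3 were tested, and all 3 passed in both comparisons of sick mice. Of all genes, 50.9% passed against wild-type and 46.4% against healthy knock-in mice. Mas1, the receptor of a shortened angiotensin that opposes the type 1 receptor, stood at 0.28, 0.43, 0.54 and 2.57 CPM in sick knock-in mice 1 to 4, against 10.4, 6.14, 7.33 and 7.89 CPM in healthy knock-in mice and 6.23, 9.14, 4.16 and 3.98 CPM in wild-type mice. Every sick mouse was below every other mouse, and sick mouse 4 was the highest of the 4. Mas1 fell by 2.64 ± 0.57 against wild-type (adjusted p by edgeR 0.00198) and by 3.07 ± 0.57 on the log2 scale against healthy knock-in mice (adjusted p 0.000874), and without sick mouse 4 these values were -3.84 and -4.27. Agtrap, which binds the type 1 receptor and draws it into the cell, fell by 1.31 ± 0.13 against wild-type and by 1.35 ± 0.13 against healthy knock-in mice (adjusted p by edgeR 8.11e-06 and 9.07e-06). Bdkrb2, the bradykinin receptor that is present without injury, rose by 2.28 ± 0.54 against wild-type (adjusted p by edgeR 0.00349) and by 1.70 ± 0.50 against healthy knock-in mice (0.0143), and leaving out sick mouse 2 ended the call against healthy mice (adjusted p by edgeR 0.0615). Agtr2, Mrgprd and Bdkrb1 were below the minimum, with 7, 3 and 8 counts in sick knock-in, 11, 1 and 3 counts in healthy knock-in and 3, 0 and 1 counts in wild-type mice.

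Most genes of the renin-cell list moved in the other direction from Ren1. Of 12 genes known from juxtaglomerular cells and their precursors, 9 were higher and 1 was lower in sick knock-in than in wild-type mice, where 25.9% of all genes were higher and 25% lower, and the same counts held against healthy knock-in mice, where 24.5% of all genes were higher and 21.9% lower. These shares of all genes also apply to the counts of the other gene and marker lists, before and after this one. Akr1b7, an enzyme that marks renin cells in mice, had a log2 fold change of -0.16 ± 0.52 against wild-type mice (adjusted p by edgeR 0.819), with 0.97, 2.09, 1.76 and 2.36 CPM in sick knock-in mice, against 3.64, 2.004, 1.993 and 0.46 CPM in wild-type mice. Gja5, a connexin that couples renin cells, rose by 1.01 ± 0.31 (adjusted p by edgeR 0.0154) and Kcnj8, a potassium channel subunit of renin cells and pericytes, fell by 1.14 ± 0.30 (adjusted p 0.00677). The 4 with the smallest adjusted p all rose: the adhesion receptor Cd44 by 4.13 ± 0.46, the pericyte gene Rgs5 by 2.15 ± 0.26, and the transcription factors Ebf1 by 1.34 ± 0.27 and Tbx18 by 4.78 ± 0.99 on the log2 scale (adjusted p by edgeR 1.85e-05 to 0.00149). Tbx18 was 3.69 without sick mouse 4 and Cd44 was 4.82 without wild-type mouse 4.

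Most genes of that list are also expressed outside the renin cell. Markers of mural cells and of fibroblasts mostly rose as well, whereas of 12 endothelial markers 0 rose and 1 fell against wild-type mice. Of 12 mural markers (smooth muscle, pericyte and mesangial) 10 rose against wild-type mice, at a summed 1049 to 2049 CPM in sick knock-in, 603.3 to 853.8 CPM in healthy knock-in mice and 545.5 to 566.7 CPM in wild-type mice. All 8 fibroblast markers rose, at a summed 2513 to 5395 CPM in sick knock-in, 279.1 to 818.8 CPM in healthy knock-in mice and 309.3 to 481.8 CPM in wild-type mice. Their part in the renin-cell genes was not tested.

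The macula densa, the tubule segment that senses salt and signals to the renin cells, was described by 7 genes, of which 4 rose against wild-type mice and none fell. The other 3, Nos1 among them, were not called, and the lowest log2 fold change was -0.60. The 7 genes summed to 182.1 to 1020 CPM in sick knock-in, 246.8 to 1081 CPM in healthy knock-in mice and 656.1 to 835.6 CPM in wild-type mice. Ptgs2 and Nos1 add little to this sum, which also includes Slc12a1. Among sick and among healthy knock-in mice the sums had the order of Umod, made by the thick ascending limb, and among wild-type mice the reverse order. How far the sum reflects that limb was not tested. Whether the 4 rose in macula densa cells or in other cells was not tested. Ptgs2, the cyclooxygenase whose prostaglandins raise renin, stood at 2.68, 3.58, 4.22 and 3.03 CPM in sick knock-in mice 1 to 4, against 0.57, 0.73, 0.57 and 1.59 CPM in healthy knock-in mice and 0.24, 0.06, 0 and 0.07 CPM in wild-type mice. The 3 groups did not overlap. Ptgs2 rose by 5.13 ± 0.57 against wild-type and by 1.95 ± 0.42 on the log2 scale against healthy knock-in mice (adjusted p by edgeR 1.82e-05 and 0.00229), and the value against wild-type was 6.01 without wild-type mouse 1. Pappa2, a protease of growth factor binding proteins, rose by 3.36 ± 0.51, Bmp3, a secreted factor, by 4.20 ± 0.46, and Oxtr, the oxytocin receptor, by 2.24 ± 0.42 against wild-type mice (adjusted p by edgeR 1.58e-05 to 0.000728). Nos1, the nitric oxide synthase that marks these cells, stood at 1.43 ± 0.24 CPM in sick knock-in, 2.24 ± 0.51 CPM in healthy knock-in mice and 1.22 ± 0.12 CPM in wild-type mice (SD, n = 4 each), and was lower in sick than in healthy knock-in mice (-0.64 ± 0.25, adjusted p by edgeR 0.0476).

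Ptgs2 was also the gene of all these lists that came closest to passing between healthy knock-in and wild-type mice, and it was singled out after its values were seen. Its log2 fold change was 3.18 ± 0.61 with an adjusted p of 0.0546 by edgeR, from 61 counts in healthy knock-in and 5 counts in wild-type mice. No overlap between these groups was seen for 3.97% of all genes. Over the alternatives and left-out mice its adjusted p ran from 0.0045 with DESeq2 to 0.222 without wild-type mouse 2.

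**Figure D3:**
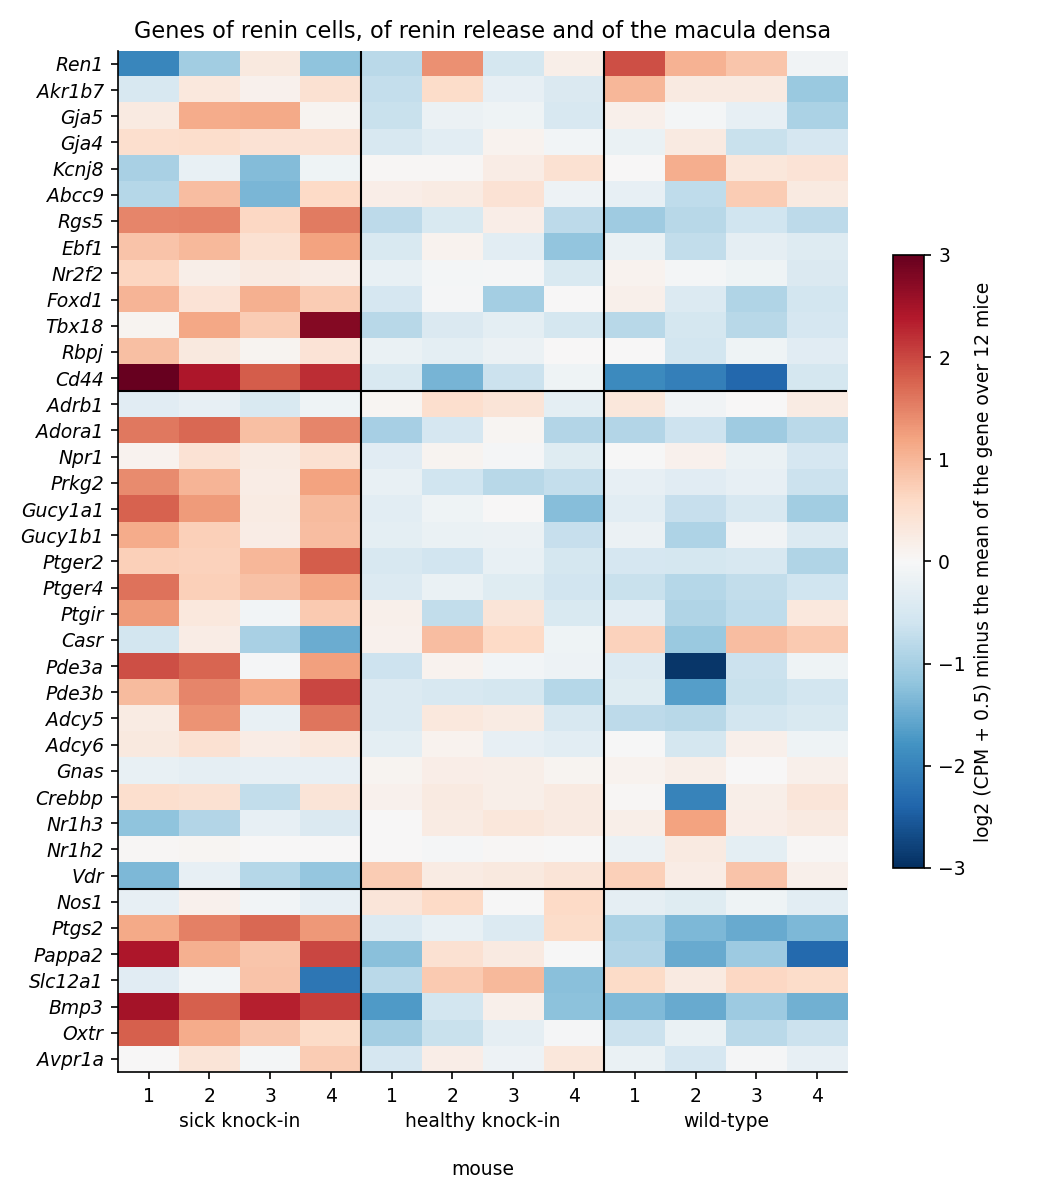
Log2 of CPM plus 0.5, minus the mean of the gene over the 12 mice, for Ren1 with the renin-cell list (top), the renin-release list (middle) and the macula densa list (bottom), with mice 1 to 4 of each group as columns and red for higher. The 4 sick knock-in mice are red for Cd44, Rgs5, Adora1, Ptgs2, Pappa2 and Bmp3, while Ren1 is blue in sick mice 1, 2 and 4.

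Of 19 genes that carry signals for renin release or transcription, 12 were higher and 3 lower in sick knock-in than in wild-type mice, and 11 were higher and 3 lower against healthy knock-in mice. The prostaglandin receptors Ptger4 and Ptger2, which stimulate release, rose by 1.95 ± 0.21 and 3.14 ± 0.48 on the log2 scale against wild-type mice (adjusted p by edgeR 1.38e-05 and 0.000163). Adora1, the adenosine receptor that inhibits release, rose by 2.41 ± 0.27, and Pde3b, which breaks down cyclic AMP, rose by 2.22 ± 0.29 (adjusted p by edgeR 1.8e-05 and 5.26e-05). Genes that stimulate release and genes that inhibit it thus both stood among those that rose. The 3 that fell were Gnas, the stimulatory G protein subunit, by 0.36 ± 0.10, Nr1h3, a sterol receptor, by 1.20 ± 0.26, and Vdr, the vitamin D receptor that represses renin transcription in mice, by 1.35 ± 0.25. Adrb1, the beta receptor of sympathetic stimulation, had a log2 fold change of -0.56 ± 0.28 (adjusted p by edgeR 0.112).

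Other subunits of the vacuolar proton pump were described from a list of 19 genes, which is not all of them. Of these 19, 12 were lower and 1 was higher in sick knock-in than in wild-type mice, with a median log2 fold change of -0.72. Against healthy knock-in mice 12 were lower and 0 higher. The catalytic subunit Atp6v1a stood at 246.8, 296.0, 322.8 and 243.8 CPM in sick knock-in mice 1 to 4, against 600.6 to 794.5 CPM in wild-type mice, and fell by 1.34 ± 0.15 (adjusted p by edgeR 1.53e-05). Atp6v1d, Atp6v1e1 and Atp6v1b2, other subunits of the cytosolic part, fell by 1.06 ± 0.17, 1.04 ± 0.19 and 1.01 ± 0.18 (adjusted p by edgeR 0.000286 to 0.000552). The value for Atp6ap2, at -0.15, lay closer to 0 than the median of these subunits. Of 7 intercalated cell markers 3 were lower, at a summed 88.5 to 186.9 CPM in sick knock-in, 187.6 to 208.1 CPM in healthy knock-in mice and 172.1 to 223.1 CPM in wild-type mice, and their part was not tested.

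Of 7 regulators of Agt, 6 were tested. In sick knock-in against wild-type mice 3 rose and 2 fell. Hnf4a, a transcription factor of the proximal tubule, fell by 1.47 ± 0.23 on the log2 scale (adjusted p by edgeR 0.000212), as did the estrogen receptor Esr1 by 1.18 ± 0.19. Stat3, Nfkb1 and Cebpb, factors of the acute-phase response, rose by 1.59 ± 0.24, 1.25 ± 0.20 and 1.38 ± 0.40 (adjusted p by edgeR 0.000166 to 0.0121). Against healthy knock-in mice 2 rose and 2 fell. Over all 7 lists, 31 of 79 tested genes were higher and 25 lower in sick knock-in than in wild-type mice, 28 were higher and 26 lower against healthy knock-in mice, and 0 passed between healthy knock-in and wild-type mice. The median log2 fold change of the 79 genes was -0.0014 in sick knock-in against wild-type, -0.01 in sick against healthy knock-in and 0.06 in healthy knock-in against wild-type mice, against 0.02, 0.05 and -0.01 over all genes tested.

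Other tissues and cell types were examined because Agt and the proteases are expressed outside the kidney as well. All 6 tested adipocyte markers rose in both comparisons of sick mice, at a summed 21.2, 297.5, 243.6 and 1163 CPM in sick knock-in mice 1 to 4, against 3.52 to 30.1 CPM in healthy knock-in mice and 6.13 to 51.1 CPM in wild-type mice. Adipocytes express Agt, which stood at 51.0, 110.2, 138.4 and 39.5 CPM in the same 4 sick mice, and the part of adipocytes in these values was not tested. Of 5 tested liver markers 2 fell, Alb and Apoh, and none rose, with log2 fold changes from -3.62 for Alb to 2.58 for Fgb against wild-type mice (adjusted p by edgeR 9.83e-05 and 0.11). The 8 liver markers summed to 48.5, 21.6, 41.2 and 346.1 CPM in sick knock-in mice 1 to 4, against 168.6 to 561.8 CPM in healthy knock-in mice and 123.9, 771.2, 12.4 and 395.1 CPM in wild-type mice 1 to 4. Liver also expresses Agt. Wild-type mouse 2 had both the highest liver sum and the highest Agt of the wild-type mice. Sick mouse 4, in contrast, had the highest liver sum and the lowest Agt of the sick mice. Healthy mouse 4 had the highest liver sum of its group, 561.8 CPM, with Agt at 32.0 CPM, where that group ran from 26.4 to 54.3 CPM. The part of liver markers was not tested. Of 8 mast cell markers 2 were tested and both rose against wild-type mice, and of 6 principal cell markers 3 rose. Of 8 adrenal markers 3 were tested, 1 higher and 1 lower, and Cyp11b2 had no count in any group. Of 8 testis markers 2 were tested and 1, Smcp, fell.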

How the data were processed

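Kidney RNA of 12 mice was measured, with 1 library per mouse, and p-values measure the spread between those mice. RNA was isolated by a miRvana procedure with a DNase step, and libraries were of the Trueseq type, per the labels' protocols. The submitters' processing notes name the build GRCm38 and the tools DESeq2 1.12.4, Cufflinks, TopHat2 2.0.11 and Trim Galore 0.3.7. The sources used here do not give the counting program, read length or strand, so reads of overlapping genes cannot be told apart. The table holds raw counts per Ensembl gene, per the file headers, and no count was changed before use. It also holds the authors' test statistic, a score per comparison as deposited, which equals the excess of the log2 fold change over 0.5 divided by its SE, within 0.01, for 100% of 10890, 10304 and 2919 genes with a larger fold change in sick knock-in against wild-type, sick against healthy and healthy against wild-type mice.

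The counts went into edgeR 4.0.16 (R 4.3.3). After filterByExpr, 15589 of 39171 genes were fitted over all 12 libraries with TMM scaling, group means only and the quasi-likelihood F test. Benjamini-Hochberg adjustment ran over all genes tested, with a threshold of 0.05. SEs of log2 fold changes were derived from the F statistic. Ratios of counts were compared by two-sided exact permutation tests. Levels per kb used the union of exons in GENCODE M21. Exact Poisson intervals at 95% cover counting error only. The fit was tested on simulated data.

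The members and the 7 pathway lists (87 genes) and 12 marker lists were chosen with earlier results of these data known. All 6 members were named in every comparison, with each gene of the processing and receptor lists and, of the others, up to 4 per list with the smallest adjusted p. Genes named beyond this rule, chosen after their values were seen, were Akr1b7, Gja5, Kcnj8, Gnas, Nr1h3, Vdr, Adrb1, Nos1, Cebpb, Kdr, Smcp, Alb, Apoh and Fgb. A few genes of the lists and the ratio tests that use them are not reported here, and the counts leave those genes out. Alternatives were scaling by library totals alone, upper quartiles or DESeq2 size factors, a filter of 1 CPM in 4 libraries or none, a robust fit, only the 8 libraries compared, limma-voom (limma 3.58.1), DESeq2 1.42.0, a block for the replicate number and each mouse left out. The replicate numbers come from the sample titles, and mice of the same number did not deviate together.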

Additional observations from a re-analysis of the deposited data

Results flagged for a closer look

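Within groups of 4 mice, 1 mouse stood apart from the other 3 by Dixon's criterion in 12 of 135 group and gene combinations examined, and chance flags about 1 in 20. Among the members this held for Agtr1b alone: healthy knock-in mouse 3 had 0.0572 CPM and wild-type mouse 4 had 0.0652 CPM, each from 1 count where the other 3 mice of the group had 0. Mas1 was 2.57 CPM in sick mouse 4, against 0.284 to 0.537 CPM in the other sick mice. Ptgs2 was 1.59 CPM in healthy mouse 4, against 0.572 to 0.735 CPM. Stat3 was 165 CPM and Hnf4a 1490 CPM in that same healthy mouse 4, against 80.1 to 82.6 CPM and 1020 to 1060 CPM. Hnf4a was 283 CPM in sick mouse 1, against 441 to 454 CPM. Rgs5 was 136 CPM in sick mouse 3, against 247 to 261 CPM. Cd44 was 6.46 CPM and Ptger2 0.0652 CPM in wild-type mouse 4, against 1.47 to 2.18 CPM and 0.236 to 0.26 CPM. Atp6v1d was 160 CPM and Atp6v1e1 347 CPM in wild-type mouse 2, against 113 to 120 CPM and 232 to 248 CPM. Causes were not tested.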

How the results depend on the processing

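No alternative and no left-out mouse changed the direction or the call of Ace in either comparison of sick mice. Agtr1b gave no fitted value under the filters. With library totals alone, which moved the median log2 fold change of all genes from near 0 to 0.61 against wild-type and 0.63 against healthy mice in sick mice, values shifted upwards: against wild-type Ren1 was -1.33 (adjusted p 0.0599), Agt 1.21 (0.0232), Agtr1a 0.35, Atp6ap2 0.44 (0.00412), Mme 0.60, Thop1 0.49, Nln 0.094, Prcp 0.056, Ctsa 0.059, Rnpep 0.52, Dpp3 0.42 and Klk1 -0.94 (0.0844), and against healthy mice Agt was 1.61 (0.00541), Agtr1a 0.17, Atp6ap2 0.43 (0.00479), Thop1 0.57, Nln 0.037, Dpp3 0.48 and Prcp -0.07 (0.758). With upper-quartile scaling Agt was 1.17 (0.0373) and Agtr1a -0.30 (0.119) against healthy mice, where Thop1 turned to 0.11 and Dpp3 to 0.018, and against wild-type Mme turned to 0.13, Thop1 to 0.025 and Rnpep to 0.062. Agt against healthy mice also passed with DESeq2, at 1.04 (0.031). Mme against wild-type turned to 0.0116 with the stricter filter and to 0.0124 with only the 8 libraries, where Atp6ap2 in healthy against wild-type mice was -0.0023. Lnpep against healthy mice was -0.12 with limma-voom. The count of pathway genes in healthy against wild-type mice was 1 instead of 0 with DESeq2, without a filter, and with upper-quartile or library-total scaling, and 0 to 1 with a mouse left out, and the 1 was Ptgs2. The cause of these changes was not tested beyond the scaling itself.

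With 1 mouse left out, log2 fold changes in sick knock-in against wild-type mice ran from -2.49 to -1.44 for Ren1, -0.22 to 0.19 for Mme, -0.19 to 0.20 for Rnpep and -0.21 to 0.093 for Thop1. Against healthy mice they ran from -1.70 to -0.42 for Ren1, 0.72 to 1.29 for Agt, -0.50 to -0.33 for Agtr1a, -0.15 to 0.36 for Lnpep and -0.075 to 0.054 for Thop1. In healthy knock-in against wild-type mice, where no member passed, they crossed 0 for Agt (-0.60 to 0.0012), Atp6ap2 (-0.042 to 0.041), Anpep (-0.026 to 0.090), Ctsa (-0.033 to 0.22), Dpp3 (-0.15 to 0.082), Lnpep (-0.040 to 0.55), Nln (-0.041 to 0.12), Prcp (-0.047 to 0.23), Prep (-0.041 to 0.24), Rnpep (-0.34 to 0.052) and Thop1 (-0.19 to 0.11). The exact test of a ratio cannot pass with 4 against 3 mice. The log2 ratio of Agtr1a to Agtr1b ran from -2.36 to -1.72 against wild-type and from -2.90 to -2.25 against healthy mice. With 1 added to each count it was -1.30 (adjusted p 0.0857) and -1.81 (0.0571).

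Mice of different groups that share a replicate number did not deviate together: the correlation of their deviations was over 0.1 in 4 of 12 pairs, with a range of -0.26 to 0.24. With the replicate block, Agt in sick against healthy mice was 0.95 (adjusted p 0.012). The ratio of Agtr1a to Agtr1b under the block was -1.92 and -2.43, where sign flips over 4 pairs cannot go below an exact permutation p of 0.125. Depth limits Agtr1b, with 12 counts in sick knock-in, 1 in healthy knock-in and 1 in wild-type mice, and the proteases and receptors below the minimum.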
